A study of Rattus norvegicus with 12 samples.

Results

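Macrophage and myeloid cell genes were examined in the bladders of rats whose spinal cord had been cut through. The set was a fixed list of 31 gene symbols, taken by name from the authors' gene table. It was drawn up from what the genes are known to do, with earlier results of these data known. Of the 31, 30 had a row among the 40154 genes of that table, and Ccr2 was not analysed here. The receptor Marco reached 3 counts in 1 of the day-28 libraries and 0 in every other library, which left 29 members among the 17687 genes tested.

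The animals were female Wistar rats, an outbred laboratory strain, aged 10 to 12 weeks, and whole bladder was taken 7, 14 or 28 days after complete transection of the cord at thoracic segment 10. The reference was a group labelled as normal controls, and the labels do not say whether these rats had a sham operation. Each of the 4 groups had 3 rats out of 20 in the study, and each library held 26275314 to 30747936 counts. Libraries of one group lay far apart relative to counting error, with 16.05 to 125.3 for chi-square over its degrees of freedom, and all 12 were kept as separate samples. The p-values set each difference between groups against the spread between rats within groups, estimated from all 12 libraries.

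Macrophages live in the bladder wall before any injury and are joined after it by monocytes from the blood, which mature into macrophages in the tissue. The transcription factors PU.1 (Spi1) and IRF8 set up the lineage, and signals through the CSF1 receptor keep the cells alive. The cells clear debris with scavenger and pattern receptors, read antibody and lipid ligands through receptors that signal over the ITAM adaptors Tyrobp and Fcer1g, and digest what they take up in lysosomes. A bladder that has lost its control from the brain stem first retains urine and is stretched, and later contracts by spinal reflexes.

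Almost all of the myeloid genes were higher in injured bladders, most at days 7 and 28 and least at day 14. The 30 members together took 0.277% to 0.367% of all counts at day 7, 0.201% to 0.401% at day 14 and 0.396% to 0.451% at day 28, against 0.122% to 0.142% in controls. No injured library fell into the control range. On a scale corrected for gene length, the summed level of the members was 3590 to 4800 TPM (the authors' transcript abundance scaled to the same total in each library) at day 7, 2922 to 6194 TPM at day 14 and 5510 to 5862 TPM at day 28, against 1737 to 2048 TPM in controls. Without Lgals3, Lyz2 and Gpnmb, the sum was 1343 to 1712 TPM at day 7 and 810 to 1380 TPM at day 14. It was 1824 to 2221 TPM at day 28, against 475 to 527 TPM in controls. More cells of a type and more RNA per cell cannot be told apart in such bulk tissue.

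In edgeR's quasi-likelihood fit of all genes, with a call at an adjusted p under 0.05, 25 of the 29 tested members rose at day 7, 13 at day 14 and 26 at day 28, and 0 fell at any of the 3 days. Of all genes tested, 15.6% rose at day 7, 1.45% at day 14 and 11% at day 28, while 10.5%, 0.995% and 7.51% fell on the same days. The median log2 fold change of the members against control was 1.63 at day 7, 1.24 at day 14 and 2.104 at day 28, while the median over all tested genes lay between -0.01 and 0.00. All 3 injured libraries stood above all 3 controls for 26 members at day 7 (23.6% of all genes tested), 21 members at day 14 (11.5%) and 25 members at day 28 (20.9%). For 0 members did all injured libraries lie below all controls, where 21.7% of all genes lay below at day 7, 13.2% at day 14 and 19.6% at day 28. At day 14 the count of 13 rested on every control library, since 1, 1 and 2 members were called without control replicate 1, 2 and 3. It was 7 without day-14 replicate 3. Laptm5 alone was called at day 14 under each of the 14 alternative settings and left-out libraries that were run.

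**Figure D1:**
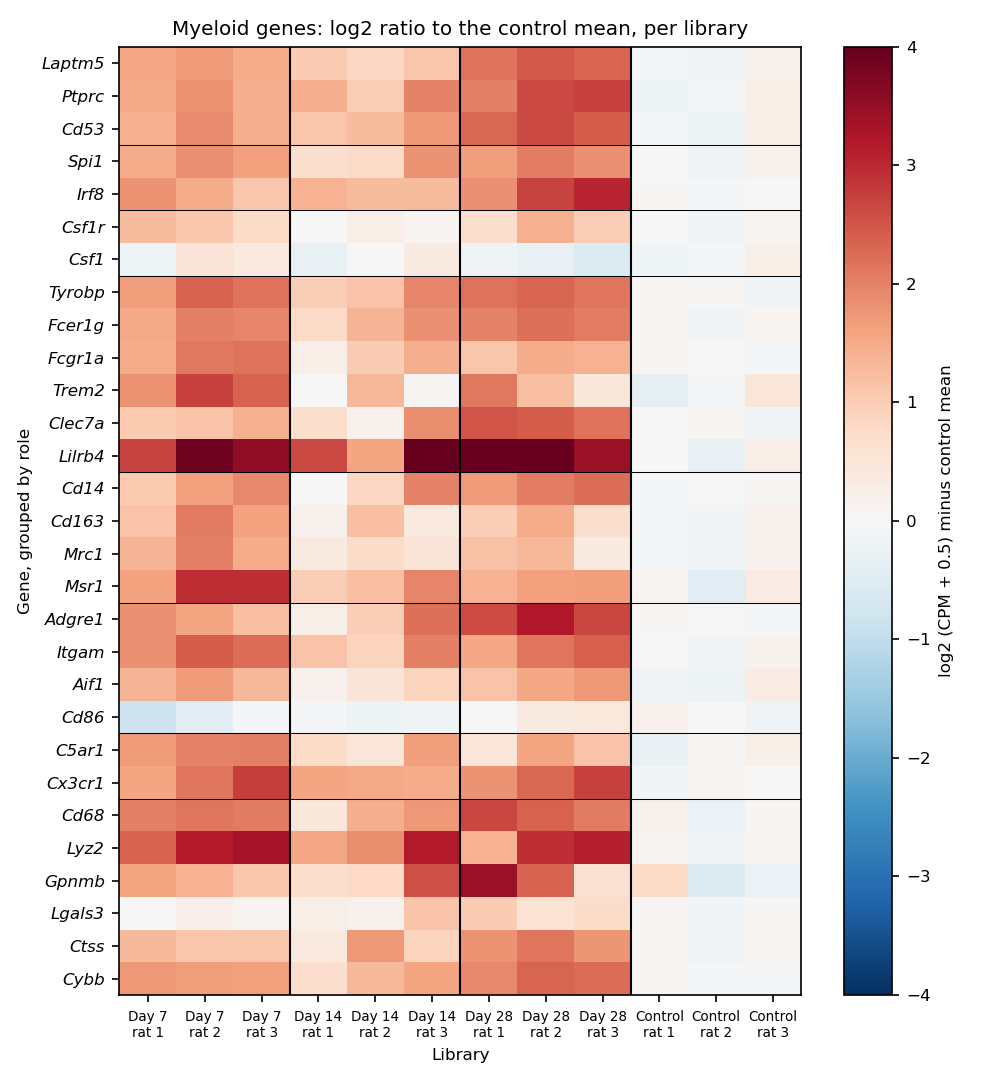
Log2 of CPM (counts scaled to the same library total, with 0.5 added) minus the control mean, for each of the 29 tested genes (vertical axis, grouped by role) in each of the 12 libraries (horizontal axis, days 7, 14 and 28, then controls). The colour scale ends at 4, which some Lilrb4 values pass. Day-14 rat 3 is redder than its group mates, and Csf1, Cd86 and Lgals3 stay pale in most columns.

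The 13 genes called higher at all 3 days were Laptm5, Tyrobp, Cd68, Itgam, Fcer1g, Lyz2, Cybb, Cx3cr1, Ptprc, Spi1, Irf8, Lilrb4 and Cd53. Another 11 were called at day 7 and day 28 and missed the threshold at day 14 (Csf1r, Adgre1, Cd14, Cd163, Mrc1, Fcgr1a, Aif1, Ctss, C5ar1, Msr1 and Clec7a). Trem2 was called at day 7 only, Gpnmb and Lgals3 at day 28 only, and Csf1 and Cd86 on none of the days. The group mean at day 14 was below those of both day 7 and day 28 for 25 of the 29 members. For this count and the next, the share over all genes was not computed. The highest of the 4 group means was that of day 28 for 20 members and that of day 7 for the other 9, which were Csf1, Cd163, Mrc1, Itgam, Fcgr1a, Lyz2, Trem2, C5ar1 and Msr1.

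**Figure D2:**
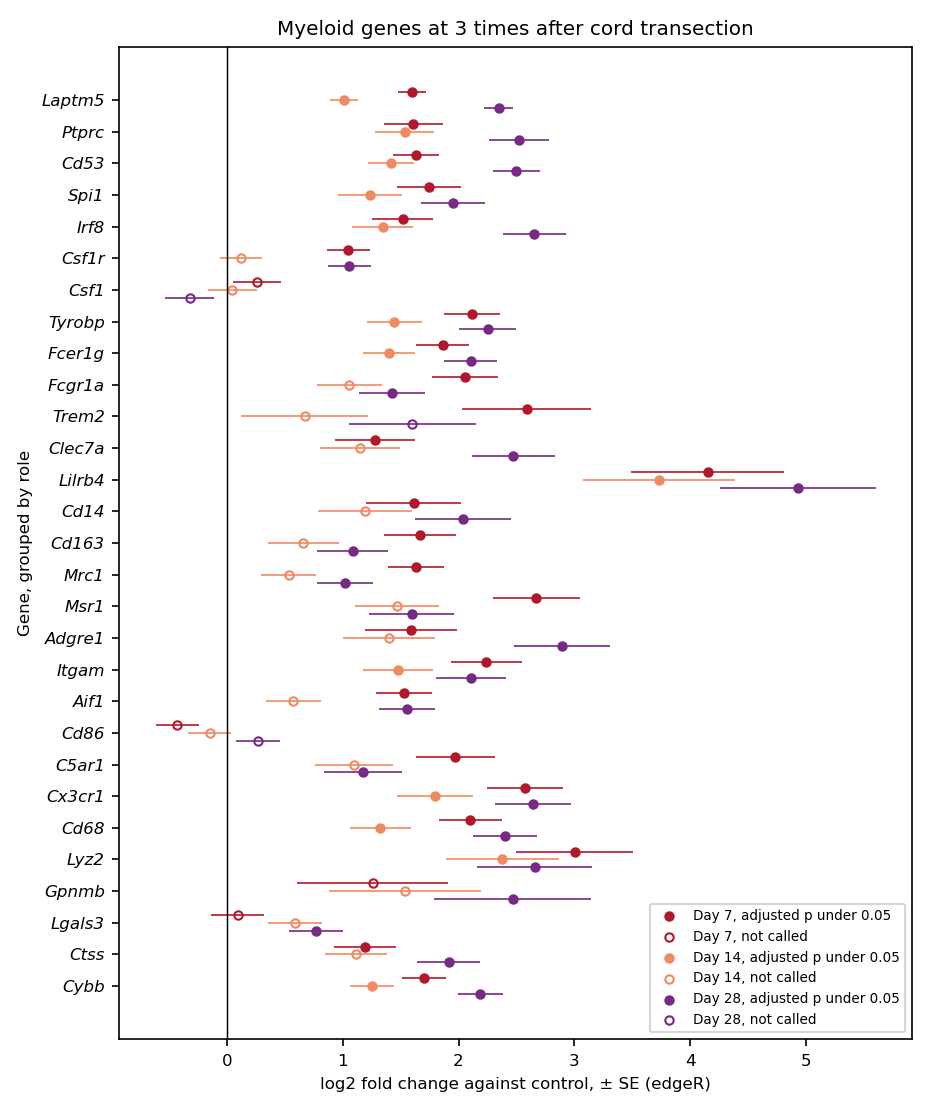
Fitted log2 fold change against control (horizontal axis) with its standard error, for each tested gene (vertical axis, grouped by role) at days 7, 14 and 28. Filled points passed the adjusted p threshold. Lilrb4 lies farthest to the right on all 3 days (4.15, 3.73 and 4.93), and Csf1 and Cd86 lie near 0.

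Promoters are shown because PU.1, the product of the member Spi1, binds purine-rich DNA. The core it binds is GAGGAA, in myeloid genes often next to an IRF site in a PU.1-IRF composite (GGAA and GAAA, 2 bases apart). The RefSeq promoter table of the rat assembly GRCr8, which holds 250 bases before and 50 bases after each gene's start, matched 22 of the 31 members. The 22 include Ccr2, which was not analysed, Marco, which was not tested, and Cd86, which was called on no day. The shares below are therefore not those of the called genes alone. GAGGAA was found on either strand in 17 of the 22 (77.3%, Marco and Cd86 among them), against 27.6% of all 33469 promoters in the table. The composite was found in 5 of the 22 (22.7%, in Gpnmb, Clec7a, Cd68, Marco and Cybb), against 2.94% of all promoters. These are letter matches and not measured binding. The members were chosen as myeloid genes and not by their changes here, so the shares describe that choice. A part of PU.1 in the changes after injury was not tested. The 250 bases before the start of 4 members follow, 5′ to 3′ on the strand of the gene, for Laptm5 (chr5:148371630-148371879, plus strand), the gene with the smallest p of the set at days 7 and 28, and for 3 genes with the composite, Cd68 (chr10:54882442-54882691, minus strand), Cybb (chrX:16065066-16065315, minus strand) and Clec7a (chr4:164599828-164600077, minus strand). Capitals mark letters of either motif, read here as their reverse complements.
Laptm5: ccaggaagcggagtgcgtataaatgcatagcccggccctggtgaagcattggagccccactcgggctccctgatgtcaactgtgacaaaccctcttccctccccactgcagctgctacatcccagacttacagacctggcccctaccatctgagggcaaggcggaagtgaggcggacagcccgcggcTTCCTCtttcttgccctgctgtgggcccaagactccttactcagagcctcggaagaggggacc
Cd68: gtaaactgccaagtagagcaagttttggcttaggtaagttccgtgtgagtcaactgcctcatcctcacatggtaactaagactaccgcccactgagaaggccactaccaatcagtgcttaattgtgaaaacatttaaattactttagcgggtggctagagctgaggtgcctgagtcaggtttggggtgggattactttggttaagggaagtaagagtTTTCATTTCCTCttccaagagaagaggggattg
Cybb: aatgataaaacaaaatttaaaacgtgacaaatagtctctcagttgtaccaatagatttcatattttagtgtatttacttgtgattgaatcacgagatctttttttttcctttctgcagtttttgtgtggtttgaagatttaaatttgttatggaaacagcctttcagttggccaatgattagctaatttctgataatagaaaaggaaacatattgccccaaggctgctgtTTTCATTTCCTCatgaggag
Clec7a: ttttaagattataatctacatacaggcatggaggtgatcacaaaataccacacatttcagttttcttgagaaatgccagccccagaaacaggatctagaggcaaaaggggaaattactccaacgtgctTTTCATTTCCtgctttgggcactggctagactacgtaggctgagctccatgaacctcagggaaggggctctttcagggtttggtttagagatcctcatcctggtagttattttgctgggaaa
In Laptm5 the GAGGAA match begins at position -63 from the start. In Cd68 and Cybb the 2 motifs overlap in the same run of letters, TTTCATTTCCTC, which begins at position -33 in Cd68 and -20 in Cybb and occurs in 6 of the 33469 promoters (0.0179%). Clec7a shares the first letters of that run, TTTCATTTCC, at position -122, a run that occurs in 68 promoters (0.203%). Those shared runs were noticed after the sequences were read.

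All 3 membrane proteins carried by leukocytes in general were called higher on all 3 days, and Laptm5 had the smallest standard error of the 29 members at day 7. Laptm5, a lysosomal membrane protein of blood cells (chromosome 5, 149015793 to 149069719 on the build rn6), had 72.6, 80.2 and 69.6 CPM in day-7 bladders, 50.2, 43.9 and 53.6 CPM in day-14 bladders and 111, 136 and 125 CPM in day-28 bladders, against 23.8, 21.9 and 27.7 CPM in controls. The 4 groups did not overlap at all, with control lowest, then day 14, day 7 and day 28. Its log2 fold change against control was 1.60 ± 0.12 at day 7 (SE, edgeR adjusted p = 4.10e-05), 1.01 ± 0.12 at day 14 (adjusted p = 0.00718) and 2.35 ± 0.12 at day 28 (adjusted p = 4.26e-06). Ptprc encodes CD45, the phosphatase on all nucleated blood cells. It had 61.6, 75.7 and 60.1 CPM at day 7, 59.4, 42.6 and 85.2 CPM at day 14 and 88.4, 136 and 147 CPM at day 28, against 18.6, 20.8 and 25.2 CPM in controls. Every injured library was above every control, and every day-28 library was above those of the earlier days. The tetraspanin Cd53 followed the same order of means, at 38.5 ± 7.78 CPM at day 7, 33.1 ± 7.96 CPM at day 14 and 70.2 ± 8.20 CPM at day 28, against 12.4 ± 1.97 CPM in controls (SD, n = 3 each). At day 28 the log2 fold changes of Ptprc and Cd53 against control were 2.52 ± 0.26 and 2.50 ± 0.20 (edgeR adjusted p = 0.000148 and 6.62e-05).

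Both lineage transcription factors rose on all 3 days. Spi1 had 15.5, 19.7 and 17.0 CPM at day 7, 8.30, 9.18 and 19.1 CPM at day 14 and 17.5, 22.8 and 19.8 CPM at day 28, against 5.19, 4.66 and 5.68 CPM in controls. The third day-14 library was as high as those of day 7, and the other 2 lay between the controls and day 7. Irf8, which directs monocyte and dendritic cell development, had 39.6, 32.1 and 24.4 CPM at day 7, 30.0, 27.3 and 27.8 CPM at day 14 and 40.6, 75.0 and 95.5 CPM at day 28, against 11.6, 10.8 and 11.1 CPM in controls. The day-28 libraries were all above the highest of the earlier injured libraries, and the first of them only just. Against control, log2 fold changes at days 7, 14 and 28 were 1.75 ± 0.28, 1.24 ± 0.28 and 1.95 ± 0.28 for Spi1 and 1.52 ± 0.26, 1.35 ± 0.26 and 2.66 ± 0.27 for Irf8 (SE, edgeR adjusted p from 0.000146 to 0.0432). The day-14 calls of both were lost without day-14 replicate 3 or any 1 control, with adjusted p up to 0.159 for Spi1 and 0.112 for Irf8 (over the leave-one-out fits from 0.0185 and 0.0437). A companion list of 11 further myeloid transcription factors had 7 called higher at day 7, 1 at day 14 and 5 at day 28, and 0 lower. Tfec rose by 1.97 ± 0.26 at day 7 and by 2.32 ± 0.26 at day 28 on the log2 scale. Irf5 was the member of that list called at day 14 (0.91 ± 0.15, adjusted p = 0.0178), and that call was lost without any 1 control, when 0 of the list were called.

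The CSF1 receptor rose and its ligand did not pass the test. Csf1r had 255, 224 and 175 CPM at day 7, 104, 126 and 113 CPM at day 14 and 170, 281 and 207 CPM at day 28, against 105, 97.1 and 114 CPM in controls. The day-14 libraries overlapped the controls, whereas every library of day 7 and day 28 was above them. The log2 fold change was 1.05 ± 0.18 at day 7, 0.12 ± 0.18 at day 14 and 1.06 ± 0.18 at day 28 (SE, edgeR adjusted p = 0.00191, 0.799 and 0.00265). Csf1 had 31.6, 51.5 and 47.1 CPM at day 7, 29.0, 36.6 and 46.9 CPM at day 14 and 33.0, 29.4 and 24.7 CPM at day 28, against 32.3, 34.5 and 42.1 CPM in controls, and each injured group overlapped the controls. Its log2 fold changes were 0.26 ± 0.21, 0.05 ± 0.21 and -0.32 ± 0.21. Among 8 other myeloid growth factors and receptors, 3 rose at day 7, 2 at day 14 and 6 at day 28, and 0 fell. Csf2rb, the signalling chain of the GM-CSF receptor, averaged 73.6 ± 12.96 CPM at day 7, 54.0 ± 28.5 CPM at day 14 and 76.2 ± 28.4 CPM at day 28, against 11.5 ± 0.489 CPM in controls. The granulocyte receptor Csf3r rose by 4.59 ± 1.11 at day 7 and by 5.44 ± 1.13 at day 14 on the log2 scale. It averaged 13.5 ± 5.32 CPM at day 7 and 24.4 ± 34.8 CPM at day 14, against 0.557 ± 0.123 CPM in controls. At day 14 the SD was thus larger than the mean. The 2 day-14 calls of this list, Csf2rb and Csf3r, were lost without any 1 control.

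Adaptors and receptors of the ITAM pathway were all called higher at day 7. Tyrobp (DAP12), the adaptor that couples receptors such as Trem2 to Syk, had 56.8, 91.4 and 80.2 CPM at day 7, 35.3, 39.6 and 69.0 CPM at day 14 and 81.5, 90.9 and 78.8 CPM at day 28, against 18.3, 18.2 and 16.2 CPM in controls. All injured libraries were above all controls, and 2 of the day-14 libraries were below all those of day 7 and day 28. Its log2 fold changes were 2.11 ± 0.24, 1.45 ± 0.24 and 2.25 ± 0.24 (SE, edgeR adjusted p = 0.000223, 0.0166 and 0.000179). The Fc receptor gamma chain Fcer1g moved alike, by 1.86 ± 0.23, 1.40 ± 0.23 and 2.104 ± 0.23. At day 14 Tyrobp and Fcer1g each lost the call without any 1 control (adjusted p up to 0.0852 and 0.086, from 0.00699 and 0.00396 over the leave-one-out fits). Fcgr1a, the high-affinity IgG receptor, rose by 2.05 ± 0.29 at day 7 and by 1.42 ± 0.28 at day 28, and stood at 1.06 ± 0.28 at day 14 (adjusted p = 0.0741).

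Trem2, a receptor for lipids and dead cells (rn6 chromosome 9, 14611541 to 14618076), was the member of this group whose late change did not pass. It had 7.00, 13.8 and 10.6 CPM at day 7, 1.64, 4.92 and 1.74 CPM at day 14 and 8.94, 4.46 and 2.44 CPM at day 28, against 1.15, 1.53 and 2.54 CPM in controls. Every day-7 library was above every other library but the first of day 28. The log2 fold change was 2.59 ± 0.56 at day 7 (SE, edgeR adjusted p = 0.00625), 0.67 ± 0.55 at day 14 (adjusted p = 0.587) and 1.60 ± 0.55 at day 28 (adjusted p = 0.0650). Clec7a (dectin-1), a receptor for fungal glucans, ran the other way, with 12.0, 12.9 and 15.96 CPM at day 7, 9.46, 6.39 and 21.6 CPM at day 14 and 34.4, 32.3 and 27.1 CPM at day 28, against 5.74, 5.94 and 5.18 CPM in controls. The day-28 libraries were above all others. Its day-7 rise of 1.28 ± 0.35 (adjusted p = 0.0193) was lost without day-7 replicate 3 or any 1 control (adjusted p 0.0257 to 0.0664 over the leave-one-out fits), while its day-28 rise of 2.47 ± 0.36 was called in all of them.

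The member with the steepest change was Lilrb4, an inhibitory receptor of myeloid cells (rn6 chromosome 1, 73393854 to 73399448). It had 7.30, 17.0 and 13.3 CPM at day 7, 6.88, 3.03 and 18.2 CPM at day 14 and 27.1, 25.2 and 12.4 CPM at day 28, against 0.696, 0.474 and 0.929 CPM in controls. Even the lowest injured library, at day 14, was several times above the highest control. Its level in injured bladders was 17.8 times that of controls at day 7, 13.3 times at day 14 and 30.6 times at day 28, with log2 fold changes of 4.15 ± 0.66, 3.73 ± 0.65 and 4.93 ± 0.67 (SE, edgeR adjusted p = 0.00113, 0.0212 and 0.000728). The day-14 call was lost without any 1 control (adjusted p up to 0.0958, from 0.00789). The authors' table of non-coding transcripts lists a transcript of Lilrb4 and of Clec7a each, and in the authors' deposited table the log2 fold change of the Lilrb4 transcript was 4.25 at day 7, 3.71 at day 14 and 4.96 at day 28. For the Clec7a transcript the authors' deposited table gives 1.91 at day 7, 1.42 at day 14 and 2.81 at day 28. These transcripts share their reads with the gene and add no independent measurement. Per library, their counts were 73.4% to 92.3% of those of the gene for Lilrb4 and 20.6% to 38.1% for Clec7a.

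Further down the same pathway, 10 of 12 signalling genes rose at day 7, 6 at day 14 and 11 at day 28, and 0 fell. The kinase Syk averaged 41.9 ± 1.16 CPM at day 7, 31.4 ± 2.80 CPM at day 14 and 52.8 ± 7.06 CPM at day 28, against 19.2 ± 0.889 CPM in controls (SD, n = 3 each). The lipid phosphatase Inpp5d (SHIP1), which limits the same signal, averaged 47.5 ± 4.62 CPM at day 7, 34.9 ± 8.49 CPM at day 14 and 54.7 ± 4.95 CPM at day 28, against 16.6 ± 2.35 CPM in controls. The 6 day-14 calls fell to 1 without control replicate 1 and to 0 without control replicate 2 or 3. All 3 low-affinity Fc receptors rose at day 7 and at day 28, and 2 of 3 at day 14. The inhibitory Fcgr2b rose by 1.45 ± 0.22 at day 7 and by 1.50 ± 0.22 at day 28 on the log2 scale. The activating Fcgr2a rose by 1.68 ± 0.36 at day 7 and by 2.21 ± 0.36 at day 28. Both day-14 calls were lost without day-14 replicate 3 or any 1 control.

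Scavenger and pattern receptors were highest at day 7, apart from Cd14. Msr1, the class A scavenger receptor, had 24.3, 62.5 and 62.8 CPM at day 7, 15.7, 18.1 and 31.1 CPM at day 14 and 20.7, 24.6 and 25.6 CPM at day 28, against 8.18, 5.61 and 9.68 CPM in controls. The first day-7 library lay among those of the later days, and the other 2 were far above them. The mannose receptor Mrc1 (CD206, rn6 chromosome 17, 81352700 to 81433743) had 275, 431 and 299 CPM at day 7, 137, 177 and 153 CPM at day 14 and 245, 272 and 138 CPM at day 28, against 105, 97.4 and 121 CPM in controls. Day 7 stood above all other groups, and day 28 overlapped day 14. The haemoglobin scavenger receptor Cd163 had 171, 328 and 234 CPM at day 7, 86.5, 178 and 99.7 CPM at day 14 and 153, 217 and 119 CPM at day 28, against 73.0, 70.9 and 86.8 CPM in controls.

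Against control, the log2 fold changes of Msr1 were 2.67 ± 0.37 at day 7, 1.46 ± 0.36 at day 14 and 1.59 ± 0.36 at day 28, those of Mrc1 were 1.63 ± 0.24, 0.53 ± 0.24 and 1.02 ± 0.24, and those of Cd163 were 1.67 ± 0.31, 0.66 ± 0.31 and 1.09 ± 0.31. All 3 were called at day 7 and day 28 and missed at day 14 (edgeR adjusted p = 0.0593, 0.274 and 0.290). The day-28 calls were close to the threshold. Mrc1 lost its call without day-28 replicate 2 or control replicate 2 (adjusted p 0.0021 to 0.0567 over the leave-one-out fits), Cd163 without day-28 replicate 2 or any 1 control (0.0257 to 0.116) and Msr1 without control replicate 2 (0.016 to 0.0533). Cd14, the co-receptor for bacterial lipopolysaccharide, rose by 1.61 ± 0.41 at day 7 and by 2.04 ± 0.41 at day 28, with the first of these calls lost without day-7 replicate 3 or control replicate 1 (adjusted p 0.0109 to 0.053). Markers of red blood cells were spread widely at day 7, where haemoglobin genes took 0.156%, 0.370% and 2.89% of counts, against 0.0637% to 0.286% in controls. Their part in the Cd163 result was not tested. The day-7 count of 25 members was the same when haemoglobin and mitochondrial genes were removed from the library totals.

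A list of 13 genes of resident tissue macrophages ran parallel to the scavenger receptors. It had 11 called higher at day 7, 0 at day 14 and 8 at day 28, and 0 lower. Vsig4 of this list was at 0 counts in the controls, and the log2 fold changes of the list at day 7 ran from -0.28 to 7.26. C1qa, a chain of the complement starter C1q, averaged 176 ± 18.5 CPM at day 7 and 175 ± 19.7 CPM at day 28, against 47.1 ± 1.70 CPM in controls. C1qb averaged 137 ± 12.1 CPM at day 7, 78.4 ± 38.5 CPM at day 14 and 134 ± 15.5 CPM at day 28, against 35.2 ± 5.17 CPM in controls, and its day-14 change just missed (adjusted p = 0.0509). The counts depended on single libraries, with 7 called at day 7 without control replicate 2, 5 at day 28 without day-28 replicate 2, and 6 at day 14 without day-14 replicate 1. At day 14, 3 of this list were called with RLE size factors and 5 with DESeq2.

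**Figure D3:**
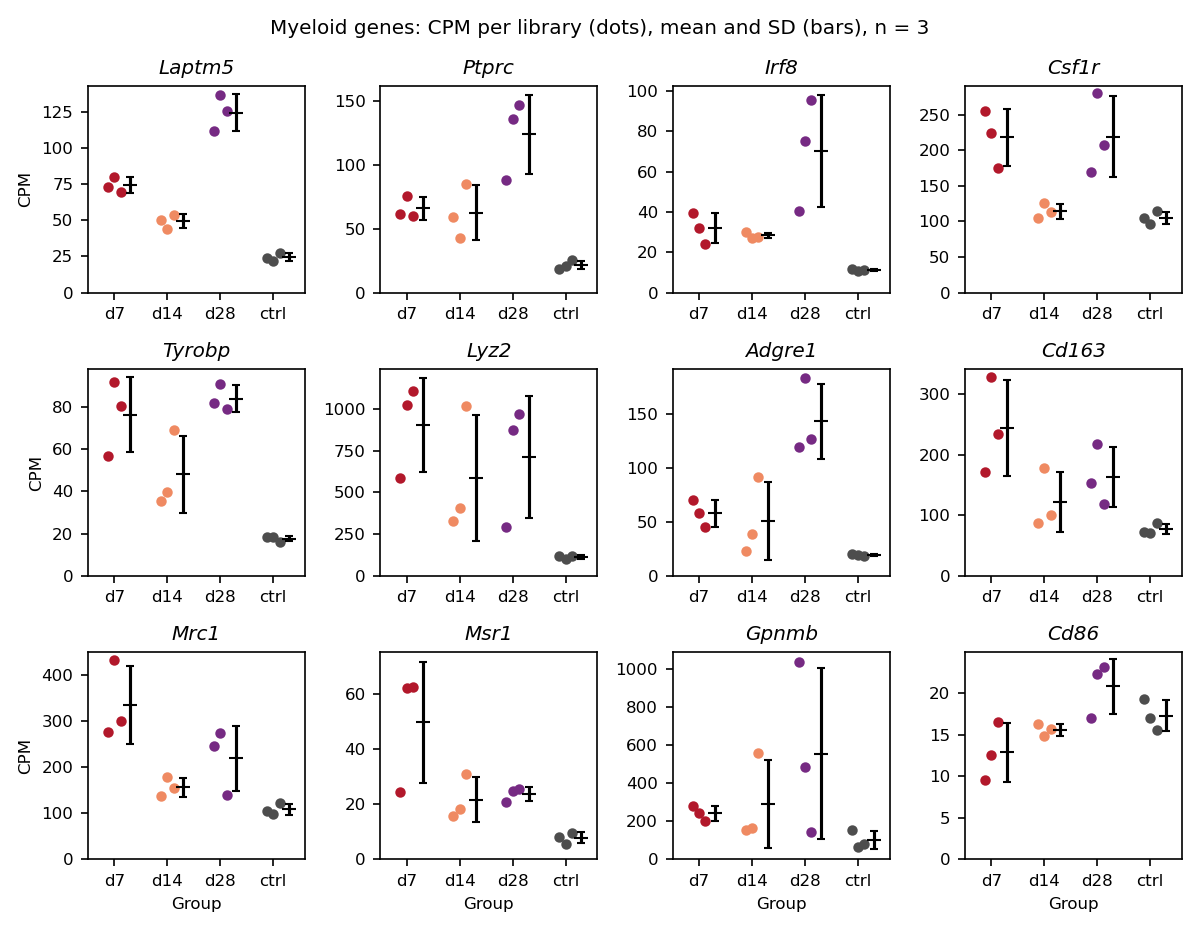
CPM (vertical axes, from 0) of 12 of the genes in each library (dots) at day 7 (d7), day 14 (d14), day 28 (d28) and in controls (ctrl), with the mean and SD of each group of 3. Laptm5 shows 4 separate groups, Mrc1 is highest at day 7, and Gpnmb is spread from 142 to 1037 CPM at day 28.

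Surface and adhesion markers differed in when they peaked. Adgre1 (F4/80), the classical marker of tissue macrophages (rn6 chromosome 9, 9431888 to 9585883), had 70.4, 58.4 and 45.4 CPM at day 7, 22.8, 38.5 and 91.3 CPM at day 14 and 120, 183 and 126 CPM at day 28, against 19.98, 19.2 and 18.7 CPM in controls. The day-28 libraries were above all others, and the day-14 libraries spanned the range from near control to above day 7. The log2 fold change was 1.59 ± 0.40 at day 7, 1.40 ± 0.40 at day 14 and 2.89 ± 0.41 at day 28 (SE, edgeR adjusted p = 0.0133, 0.0894 and 0.000979). Itgam (CD11b), the integrin chain with which monocytes and neutrophils adhere, had 36.6, 55.9 and 49.2 CPM at day 7, 22.7, 18.8 and 42.0 CPM at day 14 and 30.2, 45.3 and 53.9 CPM at day 28, against 10.0, 8.96 and 11.005 CPM in controls. All injured libraries were above the controls and the injured groups overlapped each other. Its log2 fold changes were 2.24 ± 0.31, 1.48 ± 0.30 and 2.11 ± 0.30, the second of which lost its call without day-14 replicate 3 or any 1 control (adjusted p 0.0251 to 0.132). Aif1 (Iba1), a calcium-binding protein of macrophages and microglia, rose by 1.53 ± 0.24 at day 7 and by 1.55 ± 0.24 at day 28, and stood at 0.57 ± 0.24 at day 14.

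Cd86, the co-stimulatory ligand of antigen-presenting cells, was the exception in this group. It had 9.53, 12.5 and 16.6 CPM at day 7, 16.3, 14.9 and 15.7 CPM at day 14 and 17.0, 22.4 and 23.2 CPM at day 28, against 19.4, 17.0 and 15.6 CPM in controls. Its libraries overlapped the controls on all 3 days, and its group mean was lowest at day 7 and highest at day 28. The log2 fold changes were -0.43 ± 0.19, -0.15 ± 0.19 and 0.27 ± 0.19 (SE, edgeR adjusted p = 0.118, 0.744 and 0.364). Over all alternatives the adjusted p at day 7 ran from 0.0256 to 0.296, and it passed the threshold with library totals in place of normalization factors and when day-7 replicate 3 was left out.

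Receptors for chemotactic signals rose as well. Cx3cr1, the fractalkine receptor of patrolling monocytes and resident macrophages, had 5.65, 8.66 and 13.6 CPM at day 7, 5.60, 5.40 and 5.24 CPM at day 14 and 6.57, 9.66 and 13.03 CPM at day 28, against 1.39, 1.71 and 1.57 CPM in controls. All injured libraries were above all controls, and the 3 day-14 libraries were nearly equal. Its log2 fold changes were 2.57 ± 0.33, 1.79 ± 0.33 and 2.64 ± 0.33 (SE, edgeR adjusted p = 0.000394, 0.0233 and 0.000436), the day-14 call being lost without day-14 replicate 3 or any 1 control (adjusted p 0.0316 to 0.104). C5ar1, the receptor for the complement fragment C5a, had 22.2, 26.9 and 27.8 CPM at day 7, 10.99, 9.32 and 21.6 CPM at day 14 and 9.17, 20.3 and 14.8 CPM at day 28, against 5.29, 6.63 and 7.68 CPM in controls. Day 7 was above all other groups, and days 14 and 28 overlapped. Its rise was 1.97 ± 0.34 at day 7 and 1.18 ± 0.34 at day 28, and this late call was lost without day-28 replicate 2 or 3 or any 1 control (adjusted p 0.0116 to 0.121). Of 10 genes for recruiting monocytes, 8 rose at day 7, 3 at day 14 and 7 at day 28, and 0 fell. Itga4, a chain of the integrin VLA-4, averaged 67.5 ± 10.2 CPM at day 7, 28.2 ± 2.89 CPM at day 14 and 52.0 ± 12.5 CPM at day 28, against 9.84 ± 1.42 CPM in controls. The day-7 count of this list was 5 without day-7 replicate 3 or control replicate 2 and 4 without control replicate 3, and the day-14 count was 1 without control replicate 2, 6 without day-14 replicate 1 and 5 without day-14 replicate 2.

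The lysosomal, secreted and oxidase members held both the highest levels and the least uniform changes. Per length, the highest members in controls were Lgals3 with 1177, 1031 and 1150.1 TPM, which was 58.6% of the summed level of all members, Lyz2 with 210, 173 and 196 TPM, and Gpnmb. Lyz2, lysozyme of macrophages and neutrophils, had 584, 1022 and 1105 CPM at day 7, 331, 409 and 1018 CPM at day 14 and 294, 871 and 969 CPM at day 28, against 121, 101 and 116 CPM in controls. Each injured group held both a low and a high library, and none of them reached down to the controls. Its log2 fold changes were 3.00 ± 0.50, 2.38 ± 0.49 and 2.66 ± 0.49 (SE, edgeR adjusted p = 0.00156, 0.0341 and 0.00399), and the day-14 call was lost without day-14 replicate 3 or any 1 control (adjusted p 0.0193 to 0.134). Cd68, the lysosomal marker of macrophages, rose by 2.101 ± 0.27, 1.33 ± 0.27 and 2.40 ± 0.27 on days 7, 14 and 28. Its day-14 call was lost without day-14 replicate 2 or 3 or any 1 control (adjusted p 0.004 to 0.132). The protease Ctss, which digests antigens, rose by 1.19 ± 0.27 at day 7 and by 1.92 ± 0.27 at day 28, and stood at 1.11 ± 0.27 at day 14 (adjusted p = 0.0518).

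Lgals3 (galectin-3) is a lectin of macrophages and of many epithelia. It had 509, 599 and 554 CPM at day 7, 605, 583 and 1152 CPM at day 14 and 1052, 751 and 855 CPM at day 28, against 538, 479 and 542 CPM in controls. Day 7 overlapped the controls, while day 28 was above them. The log2 fold change was 0.09 ± 0.23 at day 7 (adjusted p = 0.806), 0.59 ± 0.23 at day 14 (adjusted p = 0.209) and 0.77 ± 0.23 at day 28 (edgeR adjusted p = 0.0390), and the day-28 call was lost without day-28 replicate 1 or 3 or any 1 control (adjusted p 0.0481 to 0.126). Gpnmb, a glycoprotein of lysosome-rich macrophages (rn6 chromosome 4, 78694447 to 78715685), had 279, 244 and 199 CPM at day 7, 152, 164 and 556 CPM at day 14 and 1037, 485 and 142 CPM at day 28, against 155, 65.8 and 79.9 CPM in controls. At day 28 the libraries spanned from below the highest control to 7.29 times the lowest of their own group, the widest spread of any member there. Its day-28 rise of 2.47 ± 0.68 (adjusted p = 0.0266) was lost without day-28 replicate 1, when it was 1.64, and without control replicate 2 or 3 (adjusted p 0.00812 to 0.102).

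The catalytic chain of the phagocyte oxidase, Cybb (rn6 chromosome X, 14578330 to 14610049), had little scatter at day 7 and in controls. At day 14 its highest library was 1.88 times its lowest. It had 75.2, 71.7 and 69.3 CPM at day 7, 35.8, 55.2 and 67.3 CPM at day 14 and 85.2, 112 and 105 CPM at day 28, against 23.5, 21.5 and 21.4 CPM in controls. Day 28 was above day 7, day 7 above day 14 and day 14 above control, with no overlap. Its log2 fold changes were 1.70 ± 0.19, 1.25 ± 0.19 and 2.19 ± 0.19 (SE, edgeR adjusted p = 0.000207, 0.015 and 9.50e-05), and only the day-14 call was lost without any 1 control (adjusted p 0.00117 to 0.0745). Of the 5 other oxidase subunits, 5 rose at day 7, 2 at day 14 and 5 at day 28. Ncf1, the cytosolic activator, averaged 21.4 ± 4.76 CPM at day 7, 14.3 ± 5.59 CPM at day 14 and 64.9 ± 5.99 CPM at day 28, against 4.63 ± 0.0575 CPM in controls. Its rise against control was 2.21 ± 0.27 at day 7 and 3.81 ± 0.28 at day 28 on the log2 scale. The day-7 count of subunits was 3 without control replicate 1 or 2, and the day-14 count was 0 or 1 without any 1 control and 4 without day-14 replicate 2.

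The injured days were then compared with each other. At day 14, 8 of the 29 members were lower than at day 7 (12.0% of all genes tested were lower) and 0 were higher (7.59%). The median log2 difference was -0.51 over the members and 0.01 over all genes. All 3 day-14 libraries were below all 3 of day 7 for 10 members (19.2% of all genes) and above them for 0 (15.8%). The 8 were Laptm5, Csf1r, Cd163, Mrc1, Fcgr1a, Aif1, Trem2 and Msr1. Trem2 fell by 1.92 ± 0.54 and Mrc1 by 1.10 ± 0.24 (log2, SE). The count of 8 was 3 without day-7 replicate 2 or day-14 replicate 1, 4 without day-7 replicate 3 and 16 without day-14 replicate 3.

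At day 28, 8 members were higher than at day 14 (3.13% of all genes tested were higher) and 0 were lower (1.22%), with a median log2 difference of 0.84 over the members and 0.00 over all genes. All 3 day-28 libraries were above all 3 of day 14 for 15 members (12.6% of all genes) and below them for 0 (9.72%). The 8 were Laptm5, Cd68, Csf1r, Aif1, Cybb, Ptprc, Irf8 and Cd53. Laptm5 was higher at day 28 by 1.34 ± 0.12 and Irf8 by 1.31 ± 0.26 (log2, SE). The count of 8 was 3 without day-14 replicate 1 or 2 or day-28 replicate 3, 1 without day-28 replicate 2 and 16 without day-14 replicate 3.

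Set against day 7, day 28 had 7 members higher (7.89% of all genes tested were higher) and 0 lower (10.8%), with a median log2 difference of 0.24 over the members and 0.01 over all genes. The 7 were Laptm5, Adgre1, Clec7a, Ptprc, Irf8, Cd53 and Cd86. All 3 day-28 libraries were above all 3 of day 7 for 10 members (17.6% of all genes) and below them for 3 (18.2%), which were Mrc1, Fcgr1a and C5ar1. Msr1 was lower at day 28 by 1.08 ± 0.35 on the log2 scale and missed the threshold (edgeR adjusted p = 0.0533, 0.00719 to 0.174 over all alternatives). The count of 7 was 4 without any 1 of the day-7 replicates or without day-28 replicate 3, and 3 without day-28 replicate 2. Apart from Cd86, the 7 had also been called higher than control at both days.

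Each member was also set against Ptprc in the same library as a ratio of TPM values, a description chosen after the values had been seen. Ptprc itself rose by 2.52 on the log2 scale against control at day 28, so a gene that did not change is lower relative to it. Relative to Ptprc, 15 of 28 members were lower in all 3 day-28 libraries than in all 3 of day 7 (59.3% of all genes tested were), and 0 were higher (1.85%). Set against that share, the count of 15 shows nothing about the members. Against controls, 14 of 28 ratios at day 28 were lower in all libraries (91.5% of all genes), and 1, that of Lilrb4, was higher (1.22%). The ratio of Csf1r to Ptprc was 5.06, 3.61 and 3.56 at day 7, 2.14, 3.61 and 1.62 at day 14 and 2.34, 2.53 and 1.72 at day 28, against 6.90, 5.68 and 5.52 in controls. That of Mrc1 was 4.49, 5.74 and 5.01 at day 7 and 2.79, 2.02 and 0.951 at day 28, against 5.69, 4.71 and 4.84 in controls. At day 7 the ratios of Mrc1 and Cd163 lay across the control range, whereas at day 28 they were below it in every library. The ratio of Cd86 to Ptprc was 0.59 to 1.05 at day 7, 0.70 to 1.33 at day 14 and 0.60 to 0.73 at day 28, against 2.36 to 3.97 in controls.

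**Figure D4:**
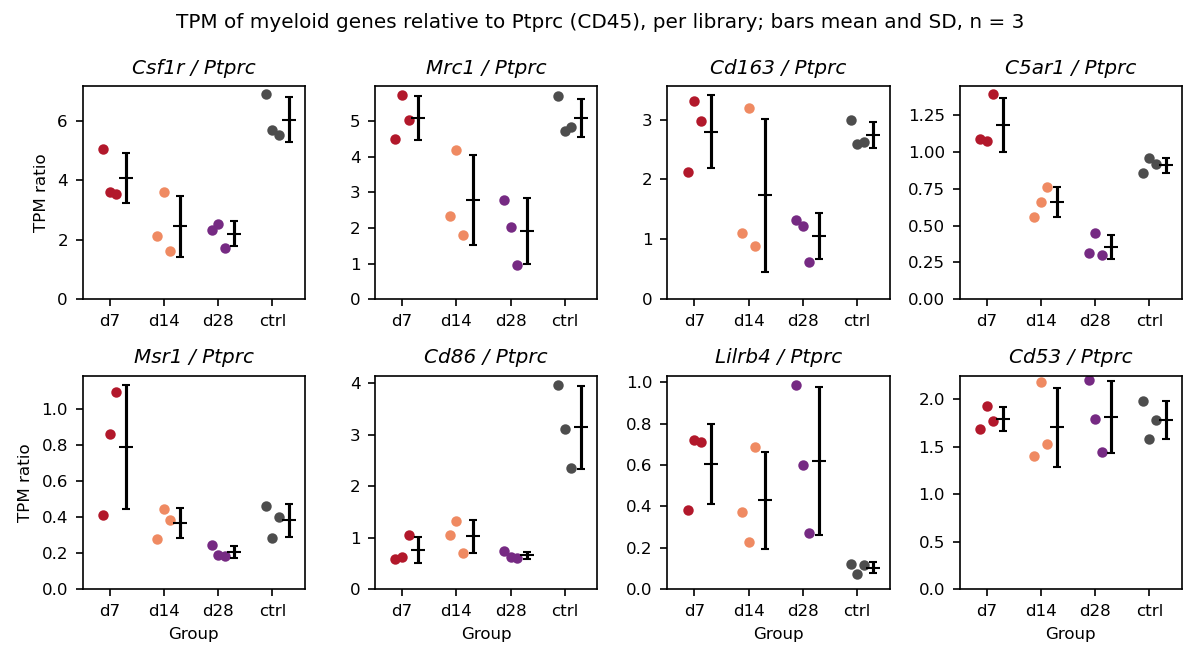
Ratio of the TPM of 8 genes to that of Ptprc in the same library (vertical axes, from 0), per library (dots) with mean and SD of 3, at days 7, 14 and 28 and in controls. The Cd53 ratio is level across groups, that of Lilrb4 is higher in every injured library, and those of Csf1r, Mrc1, Cd163, C5ar1 and Cd86 are below control at day 28.

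Ptprc is also carried by lymphocytes, and Irf8, Cd53, Laptm5 and Cd86 are expressed by them too. Markers of T and NK cells summed to 19.0 to 27.7 TPM at day 7, 19.1 to 44.1 TPM at day 14 and 57.4 to 154 TPM at day 28, against 16.6 to 20.7 TPM in controls, with none of the 10 at 0 in any group. Of these 10 markers, 1 rose at day 7, 0 at day 14 and 9 at day 28. Lck, a kinase of T cells, averaged 15.4 ± 7.24 CPM at day 28, against 1.49 ± 0.229 CPM in controls. Markers of B and plasma cells summed to 2.09, 5.58 and 106 TPM in the 3 day-28 libraries, against 0.556 to 0.982 TPM in controls. Dendritic cell markers summed to 85.4 to 138 TPM at day 7, 57.7 to 97.5 TPM at day 14 and 75.3 to 130 TPM at day 28, against 37.0 to 44.4 TPM in controls. The 6 dendritic cell markers did not all move alike. Called higher were 5 at day 7, 3 at day 14 and 4 at day 28, and 1 was called lower at day 14. The part of these cells in the day-28 values and in the ratios to Ptprc was not tested.

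Neutrophils share Itgam, Fcer1g, Tyrobp, Lyz2, C5ar1, Cybb and Clec7a with macrophages. Their 10 markers summed to 22.1, 71.1 and 59.4 TPM at day 7 and to 49.9, 10.8 and 414 TPM at day 14. Day-28 libraries had 40.4, 72.7 and 83.8 TPM, against 1.84, 3.46 and 2.21 TPM in controls. Elane, Ngp and Ltf were at 0 counts in controls, and Ltf also in all libraries of days 7 and 14. Only 6 of the 10 could be tested. Of these, 2 were called higher on each of days 7 and 28 and 1 on day 14, with 0 called lower. The day-14 library with 414 TPM, replicate 3, was the one in which the members stood highest of its group. Its median log2 ratio to the control mean over the 29 members was 1.67, against 0.683 and 0.979 in the other day-14 libraries, 1.51 to 1.83 at day 7 and 1.78 to 2.13 at day 28. The highest library was a median of 2.06 times the lowest at day 14, 1.53 times at day 7 and 1.51 times at day 28, against 1.23 times in controls. Without that library 7 members remained above the threshold at day 14 in place of 13, and the part of neutrophils in its values was not tested.

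**Figure D5:**
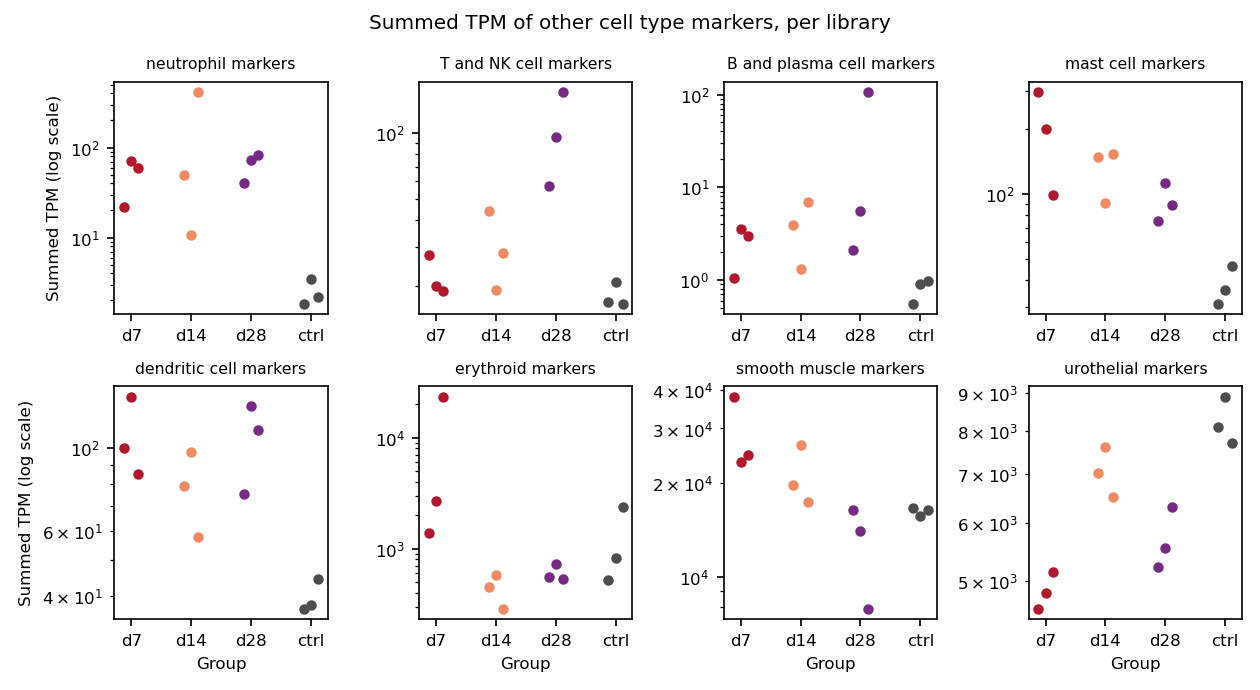
Summed TPM (vertical axes, log scale) of marker genes of 8 other cell types in each library at day 7 (d7), day 14 (d14), day 28 (d28) and in controls (ctrl). T and NK cell markers are highest at day 28, neutrophil markers peak in a single day-14 library, and urothelial markers are below control in every injured library.

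Markers of other cells of the bladder wall differed over the same days. Urothelial markers summed to 4589 to 5142 TPM at day 7, 6505 to 7608 TPM at day 14 and 5218 to 6302 TPM at day 28, against 7706 to 8901 TPM in controls. In this sum all libraries of the injured groups were below the controls. Nearest to them was day 14, the injured day with the smallest median rise of the myeloid members. Of the 7 urothelial markers, 4 were called lower at day 7, 1 at day 14 and 5 at day 28, and 0 higher. Their log2 fold changes at day 28 ran from -5.88 to 1.39. Smooth muscle markers summed to more than control at day 7 (23422 to 37914 TPM, against 15719 to 16579 TPM in controls) and to 7888 to 16433 TPM at day 28. Of the 6 smooth muscle markers, 4 were called higher and 1 lower at day 7, and 0 higher and 1 lower at day 28. Endothelial markers summed to 259 to 336 TPM at day 7, 119 to 199 TPM at day 14 and 152 to 242 TPM at day 28, against 90.5 to 102 TPM in controls. Of these 5 markers, 5 rose at day 7, 0 at day 14 and 4 at day 28, and the last count was 1 without day-28 replicate 2 or control replicate 2 and 2 without control replicate 1 or 3. All 5 were lower at day 14 than at day 7, or 3 of them without day-7 replicate 2. Fibroblast markers summed to 13309 to 15995 TPM at day 7, 4817 to 6877 TPM at day 14 and 4019 to 7946 TPM at day 28, against 9637 to 11731 TPM in controls. Of the 6 fibroblast markers, 1 was called higher than control at day 7, 1 lower at day 14 and 3 lower at day 28. Their log2 fold changes against control at day 7 ran from -0.90 to 0.90. Compared with day 7, 5 of the 6 were lower at day 14. Mast cell markers rose in 4 of 7 cases at day 7, in 3 at day 14 and in 2 at day 28, and the day-14 count was 0 or 1 without day-14 replicate 3 or any 1 control. How far these shifts in the make-up of the tissue bear on the myeloid values was not tested.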

How the data were processed

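RNA from 12 whole bladders was depleted of ribosomal RNA, made into TruSeq libraries and read as single ends of 50 bases on a HiSeq, per the labels' protocols. Per the submitters' processing notes, HISAT2 2.1.0, HTSeq 0.11.2, bcl2fastq and rn6 were the tools and build, with no role stated. Strand use in counting is not given in these sources. The authors deposited a raw read count and a TPM value per gene, per the file headers. Each deposited TPM equals the count divided by the gene length, scaled to the same total in every library. The deposited read counts per non-coding transcript, and the authors' log2 fold changes with p-values and q-values, were used for the Lilrb4 and Clec7a transcripts only.

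Genes were filtered with filterByExpr (minimum count 10, minimum total 15), scaled with TMM and fitted over all 12 libraries in edgeR 4.0.16 (R 4.3.3) with the quasi-likelihood F test. Each p-value was adjusted by Benjamini-Hochberg over the 17687 genes tested, and the standard error of a log2 fold change was its size over the root of F. CPM values are counts over the library's total times its TMM factor, on the usual CPM scale. Alternatives were DESeq2 1.42.0, RLE size factors, library totals, 2 other filters (none, and a mean of at least 5 CPM), only the 2 groups compared, the replicate number as a block, library totals without haemoglobin and mitochondrial genes, and leaving out each library. The fit was tested on simulated data.

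The members and all companion and marker lists were chosen with earlier results of these data known. Values in every library were given for the members with the smallest p at day 7, overall and in each role group, and for those that differed from their role group. The other members so described (Ptprc, Irf8, Lilrb4, Clec7a, Mrc1, Cd163, Adgre1, C5ar1 and Lyz2) were chosen after their values were seen. From each other list, up to 3 genes with the smallest p at day 7 and up to 2 at days 14 and 28 could be named. Another listed gene overlaps 6 members, 5 of them on the same strand, and holds more counts only over Marco. Depth limits the low genes most, since Lilrb4 had 13 to 26 counts in controls.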

Additional observations from a re-analysis of the deposited data

Results flagged for a closer look

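Members whose distance from control differed between 2 days were picked out by testing the days against each other in the same edgeR fit, since the days share their controls. There were 8 at day 14 against day 7, 8 at day 28 against day 14 and 7 at day 28 against day 7, at an adjusted p under 0.05. Groups of 3 rats were not tested for a library that stands apart from its group.

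Day 14 was below day 7 for the survival receptor Csf1r (-0.93 on the log2 scale), the receptors Mrc1 (-1.10), Cd163 (-1.01), Msr1 (-1.21), Fcgr1a (-0.998) and Trem2 (-1.92), and for Aif1 (-0.95) and Laptm5 (-0.59). The libraries of the 2 days overlapped for Cd163 and Msr1 and were apart for the other 6. Laptm5, Csf1r and Mrc1 were called under all 14 alternatives. The others were lost without at least 2 single libraries each, with adjusted p up to 0.073 for Aif1, 0.0902 for Fcgr1a, 0.105 for Trem2, 0.125 for Msr1 and 0.168 for Cd163 (the lowest over the leave-one-out fits being 0.0118, 0.01, 0.0116, 0.0043 and 0.011 in the same order).

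Day 28 was above day 14 for Laptm5 (1.34), Irf8 (1.31), Cd53 (1.09), Cd68 (1.08), Ptprc (0.99), Aif1 (0.98), Csf1r (0.94) and Cybb (0.93), with no overlap between the libraries of the 2 days. Laptm5 was called under all 14 alternatives, and each of the other 7 was lost without day-28 replicate 2 (adjusted p 0.0513 to 0.145 at the highest leave-one-out fit of each gene).

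Day 28 was above day 7 for Adgre1 (1.30), Clec7a (1.20), Irf8 (1.14), Ptprc (0.91), Cd53 (0.87), Laptm5 (0.75) and Cd86 (0.70), again with no overlap. Laptm5 and Cd53 were called under all 14 alternatives, and Irf8 under all but the fit of only the 2 groups compared. Adgre1, Clec7a, Ptprc and Cd86 were each lost without at least 4 single libraries, with adjusted p up to 0.12, 0.0921, 0.0882 and 0.0875 in the same order. Cd86 differed between these days while it passed the threshold against control on neither.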

How the results depend on the processing

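Of the members' fold changes recomputed under the alternatives, 1530 kept direction and side of the threshold, 145 lost the call, 67 gained it and 4 changed sign. The 4 were uncalled values near 0, namely Lgals3 at day 7 with library totals (-0.038), Trem2 at day 14 without day-14 replicate 2 (-0.042, its leave-one-out fits reaching 1.05), and Csf1 at day 14 without day-14 replicate 3 (-0.136) or control replicate 1 (-0.031), its leave-one-out fits reaching 0.21. With library totals 1 member was lower at day 7. At day 14 all called genes were 251 with a mean of at least 5 CPM (433 as reported), and DESeq2 called 20 members and 1302 genes. With only the 2 groups compared, the day-14 against day-7 counts were 5 members and 2195 genes (8 and 3457 as reported) and those of day 28 against day 14 were 1 member and 42 genes (8 and 768 as reported), for which DESeq2 gave 13 and 1609. At day 28 against day 7, 1 member was lower with no filter, a mean of at least 5 CPM, the replicate block or DESeq2 (0 as reported). The cause of these shifts was not tested, apart from the smaller number of samples where only 2 groups were fitted.

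Leaving out 1 library at a time gave 23 to 25 members higher and 0 to 1 lower at day 7 (3061 to 4888 genes), 1 to 18 members higher at day 14 (16 to 504 genes) and 20 to 25 higher at day 28 (1971 to 3283 genes). It gave 3 to 16 members lower at day 14 against day 7 (1959 to 3431 genes), 1 to 16 higher at day 28 against day 14 (261 to 1120 genes), and 3 to 5 higher with 0 to 2 lower at day 28 against day 7 (1954 to 3275 genes). Counts of 0 stayed 0 for members lower at days 14 and 28, higher at day 14 against day 7 and lower at day 28 against day 14.

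Same-numbered libraries of different groups correlated at -0.0419 to 0.190, with 6 of 18 pairs over 0.1, against 1 of 36 pairs with different numbers (-0.256 to 0.133). Since not every pair was over 0.1, the numbers were not taken to pair the samples in the main fit. That rule cannot exclude a structure shared by some libraries of the same number. With the replicate block, 25, 14 and 26 members were higher at days 7, 14 and 28, 10 were lower at day 14 against day 7, 8 were higher at day 28 against day 14, and 6 were higher and 1 lower at day 28 against day 7.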

Other observations

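A list of 16 lipid-handling and matrix-digesting macrophage genes moved less evenly than the surface receptors. At day 7, 6 of the 16 were called higher, at day 14 there was 1 and at day 28 there were 7, and 0 were lower. Spp1 (osteopontin), a secreted matrix protein of activated macrophages and of other cells, averaged 27.6 ± 9.31 CPM at day 7 and 3.21 ± 2.63 CPM at day 14, against 0.142 ± 0.0708 CPM in controls (SD, n = 3 each). It was the 1 gene of the list called at day 14 (edgeR adjusted p = 0.0288), and that call was lost without day-14 replicate 3 or any 1 control. Apoe, the lipid carrier that macrophages secrete, averaged 993 ± 529 CPM at day 28, against 127 ± 29.6 CPM in controls. The acid lipase Lipa changed little in size and with small errors, by 0.69 ± 0.09 at day 7 and by 0.86 ± 0.09 at day 28 on the log2 scale (edgeR adjusted p = 0.000413 and 0.000148).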
